A study of Glycine max with 4 samples.

Results

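Isolated binding sites of the soybean protein GLYMA.13G153200 are described here, meaning sites found in both ChIP replicates that had no other such site within 100 kb on either side. Shared sites were peaks of the 2 replicates' lists that overlapped by at least 1 bp and were matched in one-to-one pairs, widest overlap first. The position of a site was the mean of the 2 summits, and the first and last shared site of each chromosome were left out as members. Of 20217 shared sites on the 20 chromosomes, 612 (3.03%) were isolated, and the other 19605 were set against them. Applied to all peaks of a single list, the same distance rule gave 1.96% without replicate 1 and 1.91% without replicate 2. The members were chosen by the positions of peaks called in both lists, and fold, −log10 q and background come from the same peak calls. Differences in these values between isolated and other sites are therefore descriptions and were not tested. With 2 replicates, the smallest two-sided exact permutation p of such a difference would in any case be 0.5.

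ChIP-seq, the sequencing of DNA that an antibody pulls down from fixed chromatin, was done on embryos of Glycine max cultivar Williams 82 at early maturation, dissected from seeds of 6 to 7 mm. The ChIP group holds 2 biological replicates, in which chromatin was precipitated with an antibody raised against a peptide of the protein, residues 275 to 289. The input group, also 2 replicates, is sheared chromatin of the same tissue without precipitation, and its own values were not used here. All 4 samples share the genotype, the stage and the fixation with 1% formaldehyde. A control antibody or embryos lacking the protein were not among the samples, so binding by the protein and other enrichment by the antibody cannot be told apart.

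The peak names call the target ABI5. In Arabidopsis, ABI5 is a bZIP transcription factor of abscisic acid signalling that binds promoter elements with an ACGT core and acts in late seed development, on genes such as those of late embryogenesis abundant proteins. In soybean, genes are dense in the chromosome arms and sparse in the broad repeat-rich regions around the centromeres. Which genes lie beside the isolated sites was not analysed here. The peak caller gives each peak a fold, the ChIP fragments over the summit relative to the local background, and a q value. The number of fragments and the background were inferred from the deposited fold and p value, and were not given by the authors.

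The lists hold 28524 peaks in replicate 1 and 28263 in replicate 2, of which 71.3% and 71.9% formed one-to-one pairs. Over all peaks the median inferred count was 37 and 34 fragments, with a lowest count of 18 and 17. Library totals were not used here, so sequencing depth is unknown. The names inside the second list read BR3, although its sample is labelled replicate 2, and the label was followed.

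Isolated sites formed the far end of a continuous range of spacing. Their nearest shared site lay at a median of 178 kb, with a central 90% of 104 to 643 kb, against a median of 6.76 kb among the other shared sites. The window of 500 kb to either side held a median of 5 shared sites around an isolated site, itself included, and 42 around the others. Of the isolated sites, 80 had no other shared site within 400 kb and 10 had none within 1 Mb. These spacings follow from how the members were chosen.

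**Figure D1:**
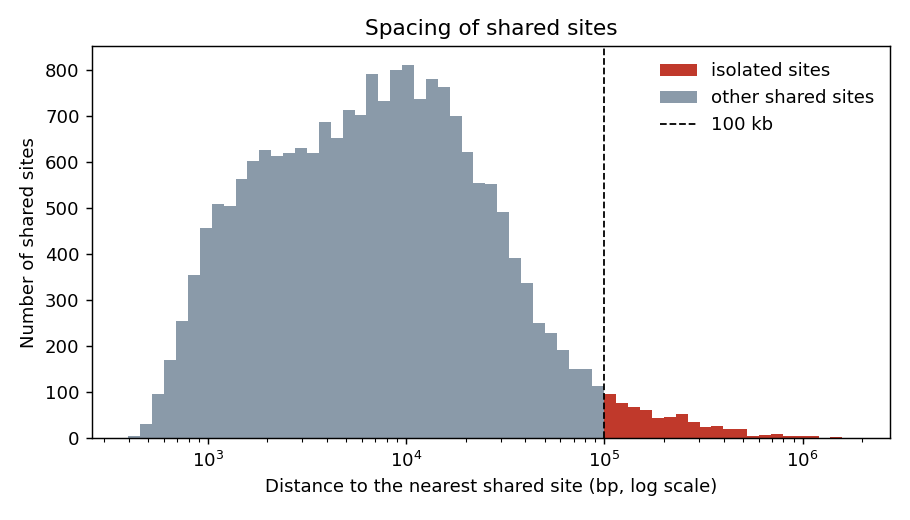
Number of shared sites (y axis) by distance to the nearest shared site in bp (x axis, log scale), with isolated sites in red and other shared sites in grey. The distribution is continuous across the 100 kb limit (dashed), and the isolated sites, median 178 kb, make up its right tail.

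Folds of the sites nearest to the limit on both sides overlapped. The 3 isolated sites closest to it had their nearest neighbour at 100.1, 100.1 and 100.3 kb. The first of them, on chromosome 7 at 13583226 to 13583696, had a fold of 4.92 in replicate 1 and 4.93 in replicate 2. The next, also on chromosome 7, at 13683435 to 13683755, is the first one's neighbour and had folds of 3.36 and 5.76. The one on chromosome 5 at 28574012 to 28574783 had 13.1 and 12.9. The 3 other sites just outside the limit, at 99.8, 99.8 and 99.8 kb, had folds of 4.80 and 6.35 (chromosome 18 at 22374622 to 22375102), 4.36 and 3.23 (chromosome 18 at 22274879 to 22275209) and 4.08 and 3.53 (chromosome 7 at 19906052 to 19906363).

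The 5 most remote sites were weak to average in strength. The site on chromosome 7 at 26233116 to 26233504 had no shared site for 2783 kb before it and 1579 kb after it. Its fold was 5.41 in replicate 1 and 4.38 in replicate 2, from 39 and 41 fragments. On chromosome 8, the site at 32341775 to 32342121 lay 1571 kb from its nearest neighbour, with folds of 4.50 and 6.27. The site on chromosome 6 at 32862380 to 32862815 lay 1561 kb away, with 3.24 and 7.53. Those on chromosome 10 at 15361507 to 15361946 and chromosome 3 at 11454390 to 11454813 lay 1275 and 1193 kb away. Their folds were 3.20 and 3.54 on chromosome 10, and 3.02 and 3.90 on chromosome 3. The first 4 of the 5 had no unpaired peak within 100 kb either, and the site on chromosome 3 had 1.

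Many isolated sites followed one another along the chromosome. The 612 sites fell into 323 runs of consecutive isolated sites, of which 190 were a single site and 76 were pairs. Runs of 5 or more numbered 21 and held 153 sites. The longest had 15 sites over 4.29 Mb of chromosome 14, from 35033179 to 39322543. Chromosome 20 had one of 14 sites over 5.07 Mb, from 25571069 to 30644688. Gaps of over 100 kb between neighbouring shared sites numbered 1719 and covered 545 Mb, or 57.5% of the 948 Mb up to the last peaks of the chromosomes.

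Isolated sites lay mostly in the middle of chromosomes, where the other shared sites were less frequent but still outnumbered them. Of the isolated sites, 80 of 612 (13.1%, 95% interval 10.5 to 16.0) were in the outer regions, the first and last 20% of a chromosome's extent, against 70.8% (70.2 to 71.4) of the other shared sites. The intervals are exact binomial intervals, cover counting error only and treat sites as independent. Of 10 equal parts of the extent, part 5 held 113 isolated sites, the highest number of the 10, and part 6 held 89. Parts 1 and 10 held 11 and 9. Isolated sites made up 16.9% of all shared sites in part 6, and 0.277% and 0.225% in parts 1 and 10. Since isolation is low local density, this distribution is part of what chose the members.

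**Figure D2:**
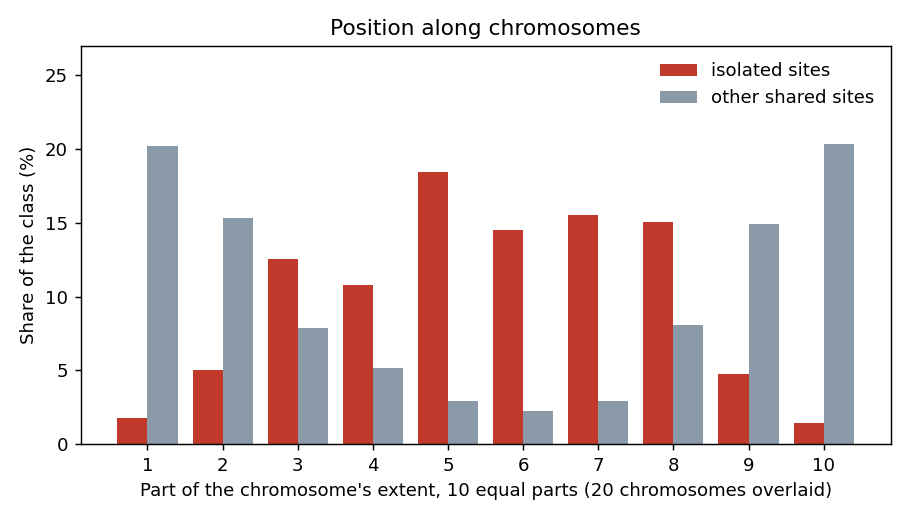
Share of each class in percent (y axis) by position in 10 equal parts of the chromosome's extent (x axis, 20 chromosomes overlaid), isolated sites in red and other shared sites in grey. Isolated sites are most frequent in part 5, at 18.5%, and the other sites in part 10, at 20.4%.

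The number of isolated sites per chromosome varied, with a mean of 30.6 ± 10.1 (SD, n = 20 chromosomes). Chromosome 1 held the highest number, 51, and chromosome 13 the lowest, 13. As a share of a chromosome's shared sites, isolated ones ran from 0.891% on chromosome 13 to 5.35% on chromosome 14, and chromosomes 1, 20, 16 and 15 also exceeded 5%. Per Mb, chromosome 20 had 0.939 isolated sites and chromosome 13 had 0.284. Gaps of over 100 kb took up 34.8% of the extent of chromosome 13 and 66.4% of that of chromosome 1. Chromosomes 2 and 6 had no isolated site in their outer regions, while 5 of the 13 on chromosome 13 lay there, a share of 38.5%. Median folds of the isolated sites of a chromosome lay between 4.09 (chromosome 6) and 6.24 (chromosome 13) in replicate 1, and between 4.16 (chromosome 8) and 6.00 (chromosome 7) in replicate 2.

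Isolated sites were nearly as strong as the others. Their median fold was 4.92 in replicate 1, against 5.07 for the other shared sites, and 5.11 in replicate 2, against 5.38. The difference of isolated from other sites was −0.059 ± 0.022 on the log2 scale (mean of −0.043 and −0.075, SD, n = 2). Against the 5726 other sites of the inner 60% of chromosomes alone, it was −0.061 ± 0.025. With the high-background sites described below left out of both classes, it was −0.027 ± 0.021, with medians of 5.06 against 5.10 in replicate 1 and 5.24 against 5.39 in replicate 2. A mean fold of at least 10 was reached by 61 isolated sites (9.97%, 95% interval 7.71 to 12.6), against 10.3% (9.88 to 10.7) of the others.

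Isolated sites were among the top 10% of shared sites about as often as the others. By mean −log10 q, 61 isolated sites (9.97%, 95% interval 7.71 to 12.6) were among the 2021 strongest shared sites, the top 10%, a share close to the 9.997% of the others. Among the 202 strongest, the top 1%, were 3 (0.490%, 0.101 to 1.43), against 1.02% (0.879 to 1.17) of the others, and these intervals overlap. The strongest isolated site ranked 53rd of all.

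Peak shape was also close to that of the other sites. Isolated peaks had a median width of 445 bp, against 457 bp, in replicate 1 and 378 bp, against 385 bp, in replicate 2. The 2 summits of an isolated site lay a median of 34 bp apart, against 38 bp, and were within 50 bp at 62.6% (95% interval 58.6 to 66.4) of isolated and 61.3% (60.6 to 61.9) of other sites. Without high-background sites the median distance was 38 bp in each class.

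Ranked by mean −log10 q, the 10 strongest isolated sites lay on 7 chromosomes, with mean folds of 20.9 to 41.0. They ranked 53rd to 304th of all shared sites, and 3 of them lay in outer regions. The strongest, on chromosome 1 at 9495703 to 9496529, had a fold of 48.8 in replicate 1 and 33.2 in replicate 2, a mean of 41.0 ± 11.0 (SD, n = 2). It had 346 and 264 fragments, and its neighbours lay 220 kb before and 194 kb after it. The next was on chromosome 19 at 7989681 to 7990421, with folds of 28.3 and 26.1 and neighbours at 118 and 125 kb. The site on chromosome 15 at 20751009 to 20752058 had folds of 20.5 and 21.3, the closest pair of the 10. Its fragments were 316 in replicate 1 and 146 in replicate 2, and its inferred background was 14.5 and 5.90 fragments.

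Chromosome 2 held a pair of these strong sites. The one at 21723854 to 21724832 had folds of 31.3 and 20.03, and the gap after it, 2140 kb, was the longest beside any of the 10. The one at 11676055 to 11677194 had 16.4 in replicate 1 and 33.4 in replicate 2. It and the site on chromosome 15 were the 2 of the 10 with a higher fold in replicate 2. Chromosome 20 also held a pair, at 20283499 to 20284242 with folds of 31.9 and 13.3, and at 10673555 to 10674307 with 25.9 and 18.8. The site at 10673555 lay 439.5 kb from its nearest shared site, the farthest of the 10.

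The other 3 of the 10 all had a higher fold in replicate 1. Among the 579 isolated sites with a background of at most 20 fragments, 254 had a higher fold in replicate 1. On chromosome 11, the site at 9807448 to 9808124 had folds of 31.3 and 11.4, a mean of 21.4 ± 14.1 (SD, n = 2). On chromosome 17, the site at 35283205 to 35284093 had 31.2 and 11.4. The site on chromosome 1 at 41918592 to 41919290 had 23.3 and 19.9. The replicate SD of fold, at most 14.1 among the 10, is too large to order them by fold. Their summits agreed to within 3 to 47 bp.

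**Figure D3:**
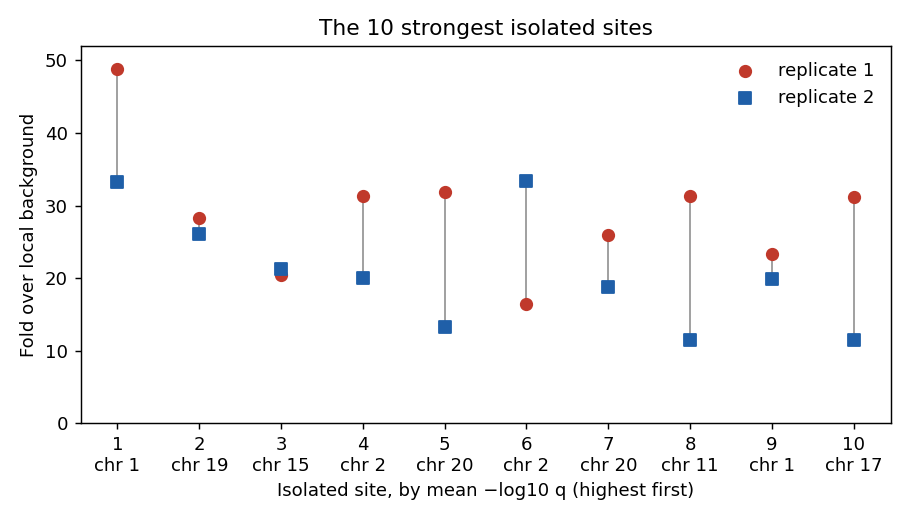
Fold over local background (y axis) in replicate 1 (red circles) and replicate 2 (blue squares) at the 10 isolated sites with the highest mean −log10 q, in that order with their chromosomes (x axis). Lines join the replicates. Replicate 1 is higher at 8 of the 10, but at only 254 of the 579 isolated sites with a background of at most 20 fragments. The first site, at 48.8 and 33.2, has the highest fold in replicate 1.

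Fold at isolated sites was moderately similar in the 2 replicates. Across the 612 sites, fold had a Spearman rho of 0.57 between replicates, and log2 fold a Pearson r of 0.71, against 0.53 and 0.64 across the other sites. Without high-background sites, rho was 0.49 over 579 isolated sites and 0.51 over the others. These are descriptions across sites, which share their libraries. The SD of fold between replicates had a median of 0.869 at isolated and 1.02 at other sites.

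**Figure D4:**
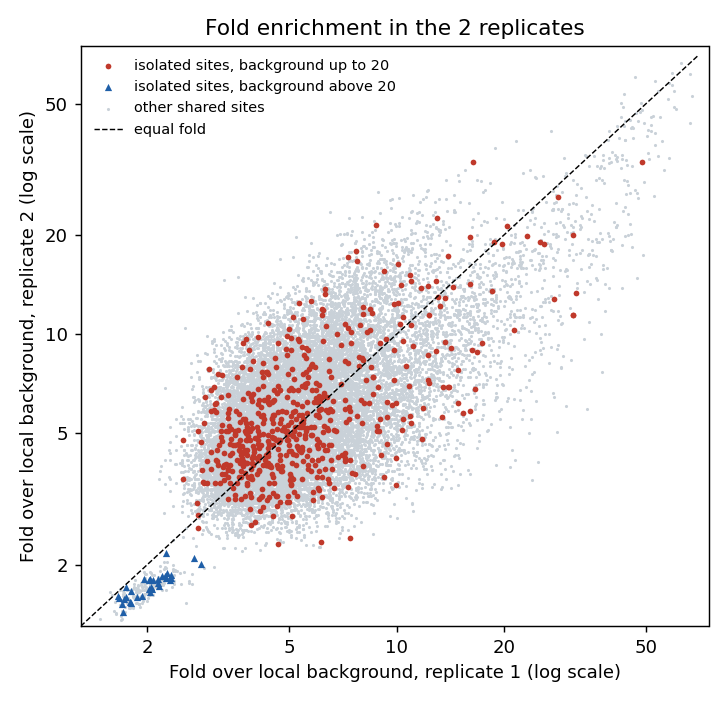
Fold over local background in replicate 1 (x axis, log scale) and replicate 2 (y axis, log scale) for each shared site, with isolated sites in red, isolated sites with a background above 20 fragments as blue triangles, and other shared sites in light grey. Isolated sites span most of the range of the others up to folds of 48.8 and 33.4, and the 33 triangles lie below a fold of 3 and below the line of equal fold. The 195 other shared sites with a high background, with median folds of 2.00 and 1.72, are among the light grey points.

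Fragment counts of the replicates differed at isolated sites about as often as over all shared sites. The counts of each pair with a background of at most 20 fragments in both replicates went into an exact binomial test, two-sided and centred on the total ratio of 0.19 (log2, replicate 1 over replicate 2), with Benjamini-Hochberg adjustment over all 19987 pairs. At an adjusted p under 0.05, 92 of 579 isolated sites differed (15.9%, 95% interval 13.0 to 19.1), beside 15.8% of all pairs tested. Of these, 39 (6.74%) were higher in replicate 1, beside 7.4% of all pairs, and 53 (9.15%) in replicate 2, beside 8.42%. These shares are near those of all pairs. The test compares the 2 libraries with counting error only. It takes fragments as independent molecules and holds no spread between biological samples, so a called site is not shown to differ beyond that spread. It also leaves out the local backgrounds, so a called site need not differ in fold. The site on chromosome 15 at 20751009 to 20752058, with folds of 20.5 and 21.3, was called. Moreover, the 2 counts of a site need not cover the same bases, since each belongs to its own summit.

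Among the 92 sites that differed, the widest ratios toward replicate 1 were at strong sites. The log2 ratios printed for these sites are not centred on the total ratio of 0.19. Centred on it, the widest were 1.55 toward replicate 1 and −1.39 toward replicate 2. The site on chromosome 11 at 9807448 to 9808124 had 244 fragments in replicate 1 and 73 in replicate 2, a log2 ratio of 1.74. The site on chromosome 15 at 36478932 to 36479482 had 150 and 46 (log2 ratio 1.71), and that on chromosome 19 at 8114374 to 8114973 had 216 and 69 (log2 ratio 1.65). Toward replicate 2, the widest ratios were at weaker sites. On chromosome 15 at 45864011 to 45864727 the counts were 30 and 69 (log2 ratio −1.20). On chromosome 18 at 38925547 to 38926001 they were 23 and 52 (−1.18), and on chromosome 4 at 14121681 to 14122073 they were 23 and 51 (−1.15). Among isolated sites with a mean of 70 to 200 fragments, the log2 ratio had a mean of 0.32 and an SD of 0.77 (65 sites), against 0.27 and 0.75 at 2349 other sites. At 200 fragments and more, the mean was 0.70 at 3 isolated and 0.63 at 178 other sites. Under 40 fragments it was 0.11 and 0.15. The lean toward replicate 1 at high counts was thus present in both classes. The means under 40 fragments lie below the total ratio of 0.19, and those from 70 fragments up lie above it. Centring on the total ratio thus places weak pairs toward replicate 2 and strong pairs toward replicate 1, on average.

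A high local background was more frequent at isolated sites. The inferred background exceeded 20 fragments in both replicates at 33 of 612 isolated sites (5.39%, 95% interval 3.74 to 7.49), against 195 of 19605 others (0.995%, 0.860 to 1.14) and 91 of 5726 others in the inner part (1.59%, 1.28 to 1.95). No isolated site exceeded 20 in 1 replicate alone. The share was between 0.694% and 1.24% in the 3 classes with a neighbour within 50 kb, and 2.99% (1.94 to 4.38) at 50 to 100 kb. Among isolated sites it was 5.48% at 100 to 200 kb, 4.32% at 200 to 400 kb and 7.50% over 400 kb, and the intervals of these 3 classes overlap. Isolated sites thus held 14.5% of the 228 shared sites with a high background.

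**Figure D5:**
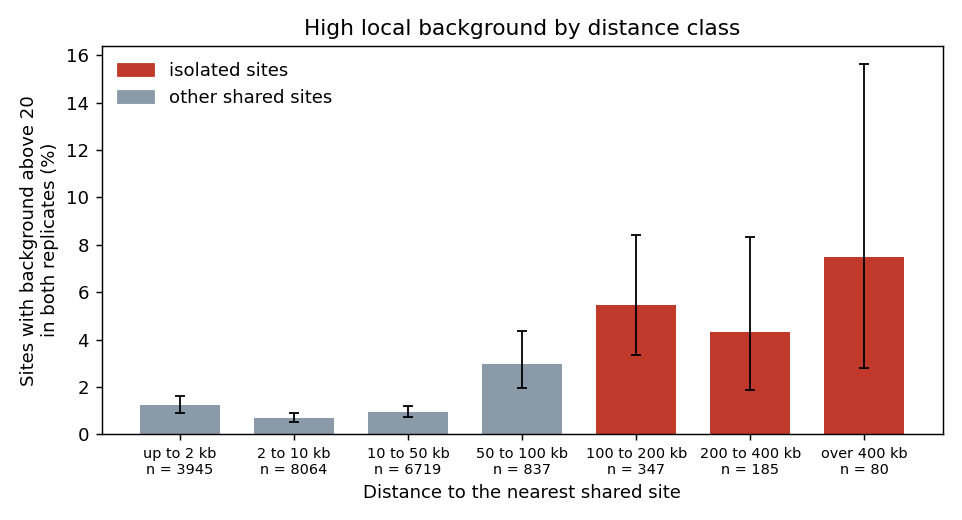
Share of shared sites with a background above 20 fragments in both replicates, in percent (y axis), by distance to the nearest shared site (x axis, n under each class, first and last sites of chromosomes left out). Isolated sites are red and other sites grey, and error bars are exact 95% binomial intervals. The share is at most 1.24% up to 50 kb and 4.32% to 7.50% over 100 kb.

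These 33 sites had low folds over many fragments. Their median fold was 2.03 in replicate 1 and 1.72 in replicate 2, and the highest in either replicate was 2.83. The median count was 176 and 173 fragments on a median background of 81.5 and 95.5. The highest background was on chromosome 6 at 23309070 to 23309628, where 401 and 403 fragments stood on a background of 204 and 222, a fold of 1.96 and 1.81. The next were on chromosome 12 at 10705304 to 10705821, with folds of 1.70 and 1.52, and on chromosome 3 at 18246180 to 18246669, with 1.67 and 1.59. The other 7 of the 10 highest lay on chromosomes 8, 14, 15 and 20, with 3 on chromosome 14. In all, 17 chromosomes held at least 1 of the 33, chromosome 15 held 4, and chromosomes 11, 16 and 18 held none.

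The replicates were close at the 33 sites, and also at the other shared sites with a high background. Summits of the 33 lay a median of 7 bp apart, and the ratio of fragments in replicate 1 to replicate 2 had a median of 0.990 and ran from 0.923 to 1.19. The background ratio had a median of 0.859, and fold was higher in replicate 1 at 33 of 33 sites, with a median ratio of 1.19. At the 579 isolated sites without a high background, fold was higher in replicate 1 at 254, with a median ratio of 0.957. The fragment ratio of these 579 had a median of 1.07. Fragment ratios here are not centred on the total ratio of the replicates. Among the 195 other shared sites with a high background, fold was higher in replicate 1 at 182, with a median ratio of 1.18. The summits of these 195 lay a median of 10 bp apart, with median ratios of 1.0 for fragments and 0.846 for background. Whether both lists were called against 1 control is not known, and its part in this closeness was not tested. In the outer regions lay 24.2% of the isolated and 53.3% of the other high-background sites.

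At the other end, isolated sites more often stood at the floor of the inferred background. The most frequent inferred background, which was also the lowest at shared sites, was 6.11 fragments in replicate 1 and 5.49 in replicate 2. It was taken as a floor, below which a local background could not be read. In replicate 1, 19.6% (95% interval 16.5 to 23.0) of isolated sites were at it, against 7.62% (7.25 to 8.00) of the other sites and 9.99% (9.22 to 10.8) of those in the inner part. In replicate 2 the shares were 34.2% (30.4 to 38.1), against 27.8% (27.2 to 28.5) and 29.3% (28.1 to 30.4), and the first and last of these intervals overlap slightly. A background at this level in both replicates was found at 59 isolated sites (9.64%), at 3.43% of the others and at 4.54% of those in the inner part. Over distance classes in replicate 1, the share was 5.80% up to 2 kb, 15.5% at 50 to 100 kb and 18.4% to 20.5% in the 3 classes of isolated sites. In replicate 2 it varied less, with 28.1% up to 2 kb, 32.6% at 50 to 100 kb and 32.5% to 34.6% in the classes of isolated sites.

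Isolation from shared sites was not isolation from every peak. Peaks without a partner, which the rule did not look at, lay within 100 kb of 352 isolated sites (57.5%, 95% interval 53.5 to 61.5). Such a peak of replicate 1 was near 230 isolated sites (37.6%) and one of replicate 2 near 230 as well. The largest number beside 1 isolated site was 7. At the other 260 sites (42.5%) no further peak of either list was called within 100 kb. Among the other shared sites of the inner part, 91.7% (91.0 to 92.4) had an unpaired peak within 100 kb.

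Peaks that were isolated in 1 list had a partner in the other list about as often as the rest. Here the distance rule was applied to all peaks of 1 list alone, and the other list, which that choice did not use, was read for a partner. In replicate 1, 382 of 542 isolated peaks had one (70.5%, 95% interval 66.4 to 74.3), against 71.3% (70.8 to 71.9) of the other peaks. In replicate 2, 382 of 551 had one (69.3%, 65.3 to 73.2), against 72.0% (71.5 to 72.5). Peaks of each list were also split into 4 classes of equal size by −log10 q. In class 1, the weakest, 61 of 122 isolated peaks (95% interval 40.8% to 59.2%) had a partner, against 44.3% (43.1 to 45.5), in replicate 1, and 57.0% (48.0 to 65.7), against 51.9% (50.7 to 53.1), in replicate 2. In class 4, the strongest, the shares were 95.3%, against 95.8%, and 94.1%, against 96.0%. The widest gap was in class 3 of replicate 2, with 72.5% (64.9 to 79.3), against 79.2% (78.3 to 80.2), intervals that overlap.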

How the data were processed

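ChIP-seq peak lists of 2 ChIP replicates were used, 1 list per sample. Bowtie 0.12.7 and MACS3 (no version) are named in the submitters' processing notes. No options, control or genome build are stated in the sources at hand. Positions are 1-based and follow the files. A q threshold of 0.01 is carried in the peak names, per the names in the deposited files. The authors deposited a fold ratio, a −log10 p, a −log10 q, a score (not used) and other columns with start, end and summit for each peak, and all of these are the authors' values.

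Fragment counts k and backgrounds λ were solved from the deposited fold, (k + 1) / (λ + 1), and the Poisson p. Every peak was solved within a relative error of 2e-05. A background counted as being at the floor, the most frequent value, when within 0.01 fragments of it. Intervals cover counting error only. Extent is the end of a chromosome's last peak. Python 3.11.15, numpy 2.4.6, pandas 2.3.3 and scipy 1.17.1 were used, and the steps were tested on simulated data.

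Members, lists and tests were chosen with earlier results of these data known. Named sites were the 10 with the highest mean −log10 q, the 5 farthest, 3 on each side of the limit, 3 called sites with the highest and 3 with the lowest count ratio, and the 10 with the highest background, of which 3 are printed in full. Motifs and neighbouring genes were not analysed here.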

Additional observations from a re-analysis of the deposited data

How the results depend on the processing

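Of 85 values under alternatives, 60 stayed within the range set around the main value, which was the replicate SD for folds, a 95% interval for shares and summit distance, and a factor of 1.5 for the number of sites. Only the log2 fold difference has a direction, and it was below 0 under all 11 of its alternatives. These reuse the same 2 lists, so their shared sign is not independent evidence for a difference. With 50 kb in place of 100 kb there were 1449 isolated sites (7.17% of shared sites, 28.6% of them in outer regions), and with 200 kb 265 (1.31%, 6.42%, with an unpaired peak within that distance at 63.0%). Counting any peak of either list as a neighbour left 260 sites (1.29%), with a median fold of 4.87 (mean over replicates), a log2 fold difference of −0.10 and 8.85% in outer regions. Requiring summits within 100 bp gave a share of 3.74%, a fold of 5.15, unpaired neighbours at 64.5% and a summit distance of 27 bp. With −log10 q of at least 5, the share was 3.40% and the fold 5.15. Leaving out 1 replicate, with all peaks of the other as sites, gave 542 to 551 sites, shares of 1.91% to 1.96%, folds of 4.38 to 4.62, log2 fold differences of −0.049 to −0.048, 11.6% to 12.0% in outer regions and 4.90% to 5.17% with a high background. Outer regions of 10% held 3.27%. Leaving out high-background sites beforehand, an alternative added after seeing the data, gave a fold of 5.15 and a log2 fold difference of −0.027. Stricter or wider rules change the number of sites by construction, and for the other shifts the cause was not tested. No paired analysis was possible because only lists of the ChIP group were analysed here, with no input values to pair with them. The log2 fold difference is itself taken within each replicate. Motif alternatives were not run. With 2 replicates an SD rests on 1 difference, and weak sites near 20 fragments are limited by counting error.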
